A study of Mus musculus with 4 samples.

Results

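The 10 genes described here belong to the unfolded protein response, and were taken by symbol from a table of 17335 genes measured by RNA-Seq in gonadal white adipose tissue (gWAT) of female mice. They are the endoplasmic reticulum (ER) chaperones and folding factors Hspa5, Hsp90b1, Dnajb9 and Pdia4, the degradation factor Herpud1, the stress sensors Atf6 and Ern1, and the transcription factors Xbp1, Atf4 and Ddit3. All 10 symbols were found once each, and all 10 reached the minimum for a comparison, 0.1 FPKM in at least 1 library. FPKM scales fragments by transcript length and by library size, so levels can be compared between genes.

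Both groups were fed a high-fat diet (HFD) with 60% of calories from fat, and the labels give 18 weeks of feeding. AD1KO mice came from a cross of Dnmt1-floxed mice with adiponectin-Cre mice, and lack the DNA methyltransferase Dnmt1 in adipocytes. The fl/fl mice were their littermate controls with the floxed allele. The age at death and the strain background of these mice are not given in the sources used here. Adiponectin-Cre acts mainly in mature adipocytes, so macrophages, lymphocytes, vessels and stroma of the fat pad keep the gene. Equal amounts of RNA from 4 mice per genotype were pooled into 1 library, so the variation among mice cannot be seen, and no test and no p-value is given. Each difference is the log2 ratio of FPKM + 0.01 in AD1KO over fl/fl, with an exact 95% Clopper-Pearson interval on estimated reads that covers counting error only. The series also holds 2 bisulfite libraries of adipose tissue, which were not used here.

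The unfolded protein response matches the folding capacity of the ER to the load of proteins that enter it. The chaperone BiP, encoded by Hspa5, binds unfolded chains and also holds the stress sensors IRE1 (encoded by Ern1), PERK (Eif2ak3) and ATF6 in an inactive state. Under stress, IRE1 removes a short stretch from Xbp1 mRNA so that the active factor XBP1s can be made, ATF6 is cleaved in the Golgi to free a transcription factor, and PERK slows translation while allowing ATF4 and then CHOP (Ddit3) to be made. Much of this signalling runs through splicing, cleavage and phosphorylation, which a gene's mRNA level does not measure. In obesity, adipose tissue is known for ER stress in adipocytes, and secretory cells such as plasma cells are known for high levels of XBP1 and of ER chaperones.

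The promoters that carry elements of the response are shown first, since these elements are the known link between the sensors and the chaperone genes. The ER stress response element (ERSE) consists of CCAAT and CCACG with 9 bases between them, and is bound by NF-Y at the former part and by ATF6 or XBP1 at the latter. RefSeq promoters, from 250 bases before to 50 after the transcript start on GRCm38.p6, were found for 9 of the 10 genes, all but Atf6. Each of the 9 matched the mm9 genome exactly and once. A complete ERSE on either strand was found for Hspa5 and Hsp90b1, and in 39 of all 32851 promoters (0.119%). Capitals mark the elements in the sequences printed here, which run 5′ to 3′ on the strand of the gene.
Hspa5, chr2:34627540-34627568, plus strand: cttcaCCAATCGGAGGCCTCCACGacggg
Hsp90b1, chr10:86168263-86168416, minus strand: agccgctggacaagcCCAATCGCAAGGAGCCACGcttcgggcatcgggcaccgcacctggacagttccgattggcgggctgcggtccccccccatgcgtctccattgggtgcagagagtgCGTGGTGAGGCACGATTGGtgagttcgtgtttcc
Pdia4, chr6:47763586-47763633, minus strand: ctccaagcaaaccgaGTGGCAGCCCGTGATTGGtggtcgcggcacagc
Herpud1, chr8:96910262-96910328, plus strand: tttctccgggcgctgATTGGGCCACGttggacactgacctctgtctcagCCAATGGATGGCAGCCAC

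Hspa5 had 1 complete ERSE, from -65 to -47 relative to the RefSeq start, and a GENCODE transcript of mm9 begins upstream of it. Hsp90b1 had 2, the first from -212 to -194 in the direction of the gene and the second from -107 to -89 in the opposite direction. Pdia4 and Herpud1 matched only when the last base of the element was dropped, a form present in 120 promoters (0.365%), which include the 39. In Pdia4 this element ran backwards, from -107 to -90, and in Herpud1 it ended at the last base before the start. Herpud1 also held ERSE-II, which is ATTGG and CCACG with 1 base between them, from -52 to -42, as did 12 promoters in all (0.0365%). A C/EBP-ATF response element, TGATGNAAN, was matched in Herpud1 (from -113 to -105) and in 1299 promoters (3.95%), and the XBP1 core TGACGTGG in none of the 9 and in 222 promoters (0.676%). These searches covered both strands, and the forms of ERSE overlap one another. Atf4, Xbp1, Ddit3, Ern1 and Dnajb9 had no match to these letters in this window.

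**Figure D1:**
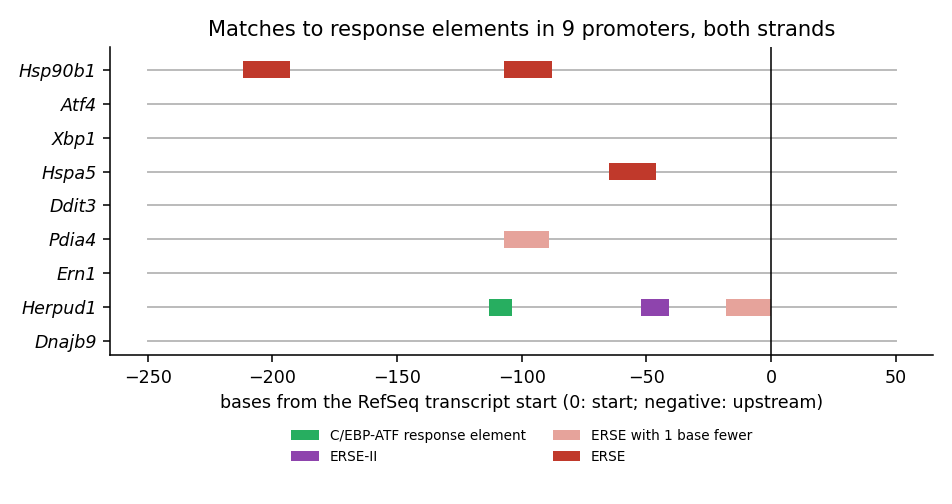
Position of matches to response elements in the RefSeq promoters of 9 genes, in bases from the transcript start; each bar is 1 match and each grey line 1 promoter, ordered from the lowest log2 ratio at the top. Hsp90b1 has 2 complete ERSE, Hspa5 has 1, and Pdia4 and Herpud1 have the form without the last base.

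The level of the chaperones was far above that of the sensors. Hsp90b1, which encodes the ER form of HSP90, measured 210.82 FPKM in fl/fl, against 155.94 in AD1KO. Hspa5 was at 207.37 and 181.1 FPKM. Ranked by level within fl/fl and AD1KO, Hsp90b1 was at places 419 and 551 and Hspa5 at places 424 and 480. Counting intervals of the levels of these chaperones overlapped in fl/fl, where Hsp90b1 reached from 206.7 to 215.0 FPKM and Hspa5 from 203.1 to 211.7. In AD1KO they did not, with 152.4 to 159.6 for Hsp90b1 and 177.1 to 185.2 for Hspa5. Hspa5 was thus above Hsp90b1 beyond counting error in AD1KO, and the fl/fl values gave no order.

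Next in order stood the transcription factors Atf4 at 81.05 and 61.71 FPKM and Xbp1 at 72.4 and 61.22 FPKM. Their counting intervals were apart in fl/fl, at 77.8 to 84.4 and 69.7 to 75.2, and overlapped in AD1KO. Pdia4, a protein disulfide isomerase, was at 43.31 and 38.99 FPKM, and Ddit3 at 42.18 and 37.89 FPKM, with overlapping intervals in each library. Herpud1, which helps to send misfolded proteins to degradation, was at 33.1 and 32.67 FPKM, and Dnajb9, a co-chaperone of BiP, at 27.92 and 29.52 FPKM. The intervals of this last pair overlapped in AD1KO and not in fl/fl. Of the sensors, Atf6 was at 6.35 and 5.49 FPKM, and Ern1 at 0.28 and 0.27 FPKM. Ern1 rested on about 19 and 18 reads and was the least precise of the 10. The 10 genes together summed to 724.78 FPKM in fl/fl and 604.8 in AD1KO, or 0.126% and 0.111% of all FPKM.

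**Figure D2:**
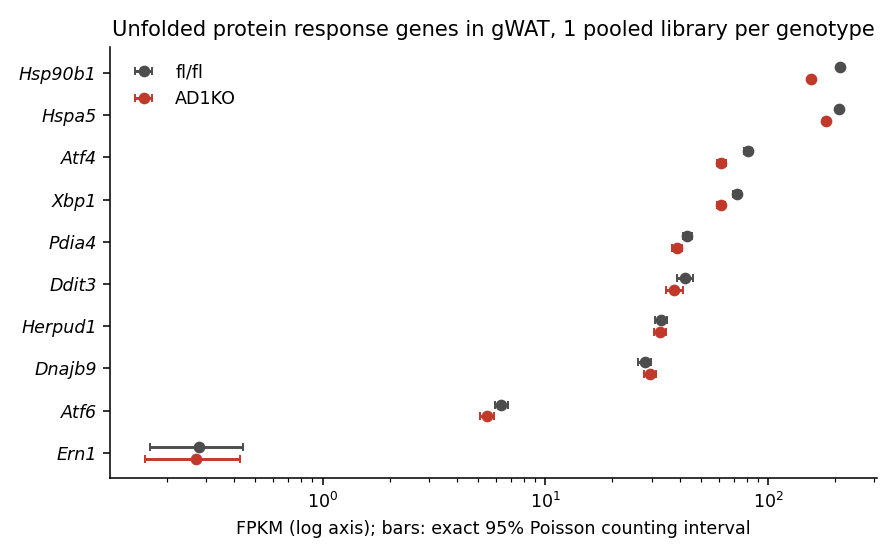
FPKM of the 10 unfolded protein response genes in the fl/fl (grey) and AD1KO (red) libraries on a log axis, with exact 95% Poisson counting intervals as bars. Levels run from 0.27 FPKM for Ern1 in AD1KO to 210.82 for Hsp90b1 in fl/fl, and differences between the genotypes are small beside this range.

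None of the 10 genes was past a log2 ratio of 0.5 in either direction, the threshold given for differential expression in the methods. Over the 15839 genes tested, 19.1% were at or below -0.5 and 14.3% at or above 0.5. Of the 3883 genes that reached 20 FPKM in at least 1 library, as 8 of the 10 did, 15.0% were lower and 9.53% higher. The log2 ratio was below 0 for 9 of the 10 genes, against 53.8% of all genes tested. With both libraries scaled by their upper quartile, 7 of the 10 were below 0. The 53.8% is the share without that scaling. Under it, the median of the 10 was -0.09, and that of all genes tested 0.05. Without it, the median of the 10 was -0.18, and that of all genes tested -0.04. Bulk RNA cannot tell fewer cells of a type from less RNA per cell, here and in the values that follow.

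On the FPKM as deposited, the whole counting interval lay below 0 for 6 of the 10 genes and above 0 for 0 of them, while 4 held 0. This count depends on the scaling. For Pdia4 and Atf6 the interval ended at -0.06, while upper-quartile scaling moved the median of all genes up by 0.09. Over all genes tested, 29.0% had the whole interval below 0 and 21.5% above. For the 3883 genes that reached 20 FPKM these shares were 41.6% and 35.4%, beside 5 and 0 of the 8 members at that level. An interval on 1 library per group narrows with depth alone, so abundant genes reach this mark at small differences. Of all genes tested, 62.1% lay within the largest difference of the 10 in either direction, and of those with at least 20 FPKM, 70.6%. The differences of the 10 genes were thus of a size common in the table.

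**Figure D3:**
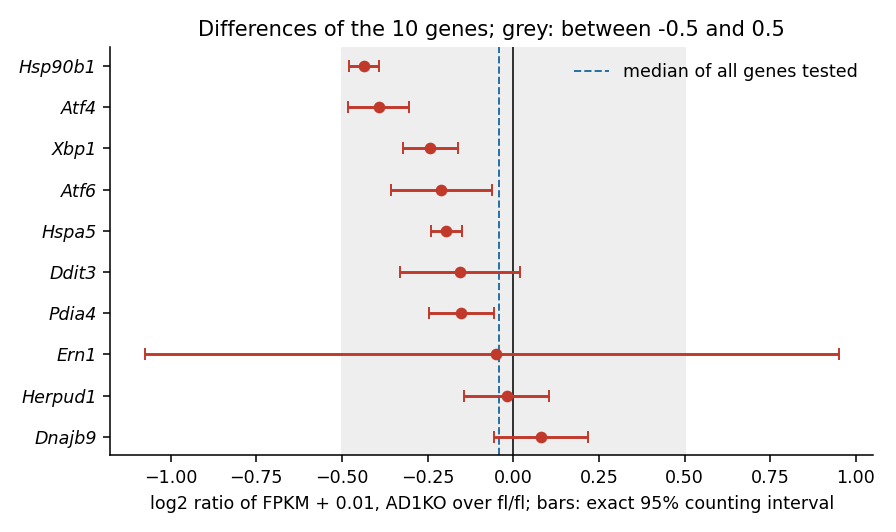
Log2 ratio of FPKM + 0.01, AD1KO over fl/fl, of each of the 10 genes (points) with exact 95% counting intervals (bars); the dashed line is the median of all genes tested and the grey band spans -0.5 to 0.5. Every point lies inside the band, from -0.43 for Hsp90b1 to 0.08 for Dnajb9, and the interval of Ern1 runs from -1.07 to 0.95.

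Among the chaperones, the difference was largest for Hsp90b1 (gene 22027, chr10:86152954-86168254, minus strand). Its log2 ratio was -0.43, with an interval from -0.48 to -0.39, from about 9822 and 7174 reads, a change of -26.0%. Hspa5 (gene 14828, chr2:34627490-34632051, plus strand) had a log2 ratio of -0.20 (interval -0.24 to -0.15) from about 8853 and 7635 reads. The intervals of both chaperones did not overlap, and the FPKM ratio of Hsp90b1 to Hspa5 was 1.02 in fl/fl and 0.861 in AD1KO. Annotated exons of Hsp90b1 overlap those of a long non-coding RNA on the opposite strand, 1810014B01Rik, and of Gm15344 and a miRNA on its own strand. Whether the library kept strand is not given in the sources used here, so reads of overlapping exons cannot be told apart.

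The other folding and degradation factors differed less. Pdia4 (gene 12304, chr6:47746141-47763511, minus strand, overlapping Mir704) had a log2 ratio of -0.15 (interval -0.25 to -0.06). Herpud1 (gene 64209, chr8:96910338-96919277, plus strand) had one of -0.02 (interval -0.14 to 0.10), which was above 0 under the 3 other scalings and without the 20 most abundant genes. Dnajb9 (gene 27362, chr12:45306884-45311055, minus strand) was the only one of the 10 above 0, at 0.08 (interval -0.06 to 0.22). The genes that carry ERSE-like elements therefore ran from -0.43 to -0.02. Per unit of Hspa5, Pdia4 was at 0.209 in fl/fl and 0.215 in AD1KO, Herpud1 at 0.160 and 0.180, and Dnajb9 at 0.135 and 0.163. The interval of the log2 ratio of Hspa5 overlapped that of Pdia4 but not that of Herpud1 or Dnajb9.

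The log2 ratios of the transcription factors were all below 0, and none passed the threshold. Atf4 (gene 11911, chr15:80085614-80087970, plus strand) had a log2 ratio of -0.39 (interval -0.48 to -0.30) from about 2329 and 1751 reads, a change of -23.9%. Xbp1 (gene 22433, chr11:5420662-5425896, plus strand) had one of -0.24 (interval -0.32 to -0.16) from about 2739 and 2287 reads. Ddit3 (gene 13198, chr10:126727830-126733344, plus strand), which encodes the death-linked factor CHOP, was at -0.15 with an interval from -0.33 to 0.02. Its exons overlap those of Mars, a tRNA synthetase gene on the opposite strand. The FPKM ratio of Ddit3 to Atf4 was 0.520 in fl/fl and 0.614 in AD1KO, and the counting intervals of their log2 ratios overlapped.

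A gene-level value does not tell which form of Xbp1 was present. GENCODE lists a transcript of Xbp1 with the stretch that IRE1 removes (Xbp1-001, 804 coding bases) and one without it (Xbp1-201, 1116 coding bases). The stretch has 26 bases and lies in a coding exon, and its removal shifts the reading frame. Because bases repeat at its ends, 7 placements give the same spliced sequence, and one of them, chr11:5424282-5424307 on the plus strand of mm9, is shown in capitals.
Xbp1 coding sequence around the IRE1 site: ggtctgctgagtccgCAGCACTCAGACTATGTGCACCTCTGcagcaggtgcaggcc
Reads with and without these bases count toward the same FPKM of Xbp1, so IRE1 activity was not measured by it.

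Both sensors were at low levels. Atf6 (gene 226641, chr1:172634588-172797902, minus strand) had a log2 ratio of -0.21 (interval -0.36 to -0.06) from about 822 and 702 reads. Ern1 (gene 78943, chr11:106255964-106349166, minus strand) had one of -0.05, and its interval, from -1.07 to 0.95, held the threshold in both directions. Eif2ak3, which encodes the sensor PERK and is not among the 10, stood at 4.19 and 3.77 FPKM, with a log2 ratio of -0.15 (interval -0.39 to 0.08).

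**Figure D4:**
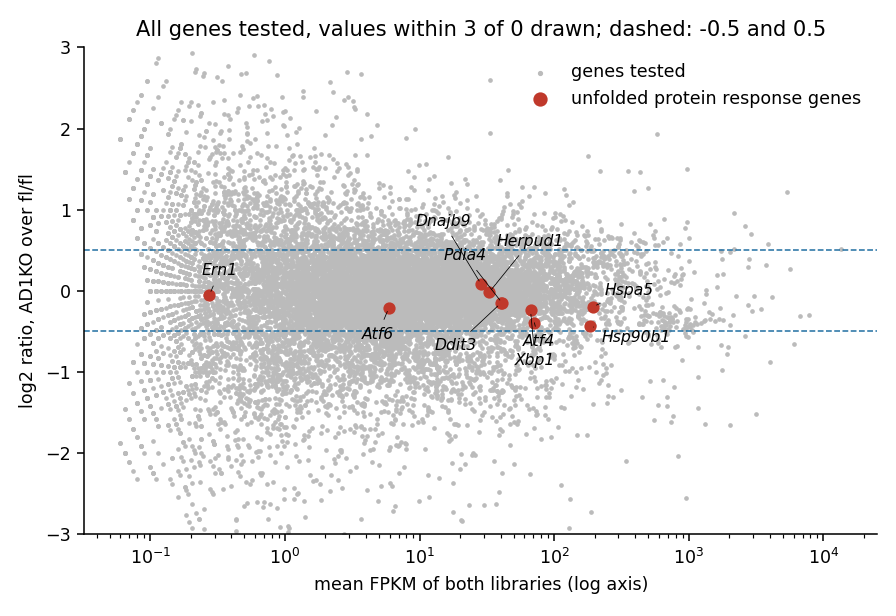
Log2 ratio of AD1KO over fl/fl against the mean FPKM of both libraries (log axis) for the genes tested (grey; values beyond 3 in either direction are not drawn), with the 10 unfolded protein response genes in red. The red points lie between the dashed lines at -0.5 and 0.5, and Ddit3 and Pdia4 fall on almost the same point.

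Other genes of the pathway were counted in 5 lists of 100 genes in all, every one of them tested. Of these, 9 were at or below -0.5 and 6 at or above 0.5, with a median of -0.08, which was 0.01 with upper-quartile scaling. Past the threshold in either direction were 15% of the 100, against 33.4% of all genes tested. ER chaperones and folding enzymes came closest to Hsp90b1 and Hspa5. Of 20 such genes 3 were lower, 0 were higher and the median was -0.20, between -0.21 and -0.11 over the alternatives. These 3 made up 15% of the list, against 19.1% of all genes tested at or below -0.5. Creld2, a folding factor induced by ER stress, measured 34.09 FPKM in fl/fl, against 19.03 in AD1KO, with a log2 ratio of -0.84 (interval -1.02 to -0.66). Sdf2l1, part of the BiP chaperone cycle, was at 35.65 and 20.97 FPKM (-0.77), and Manf, a secreted ER stress factor, at 57.58 and 38.43 FPKM (-0.58). Manf was no longer past the threshold with upper-quartile scaling. Calreticulin (Calr), the most abundant of the list, stood at 479.73 and 410.45 FPKM (-0.23), and Sil1, a nucleotide exchange factor of BiP, had the highest ratio at 0.16.

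Genes of ER-associated degradation stood nearer to Herpud1, with 0 lower and 0 higher of 18. Their median log2 ratio was 0.01, and 0.09 with upper-quartile scaling. Derl1, a channel component, had the highest ratio at 0.22 (48.04 and 56.1 FPKM), and Derl3 the lowest at -0.43 (4.55 and 3.37 FPKM). Vcp, the ATPase that pulls proteins from the ER and the most abundant of them, was at 0.03. Translocation genes and secretory targets of XBP1 also had 0 lower and 0 higher of 20, with a median of -0.09 that was -0.0005 with upper-quartile scaling, where 10 of 20 were below 0. The signal peptidase subunit Spcs3 came close to the threshold at -0.50 (17.93 and 12.69 FPKM) without passing it, Sec24d had the highest ratio at 0.20, and Ssr2 was the most abundant at 163.32 and 169.37 FPKM.

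Of 14 sensors and processing factors, 2 were lower and 0 higher, with a median of -0.10 that was -0.01 with upper-quartile scaling, where 7 of 14 were below 0. These 2 made up 14.3% of the list, against 19.1% of all genes tested at or below -0.5. Both of the lower genes act in the mitochondrial death pathway and bind IRE1, namely Bak1 (54.94 and 32.09 FPKM, log2 ratio -0.78) and Bax (93.56 and 57.56 FPKM, -0.70). The ATF6 relative Creb3l2 had the highest ratio at 0.26, and Tmbim6, the Bax inhibitor, was the most abundant at 324 and 300.23 FPKM (-0.11).

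Targets of ATF4 and CHOP were the most divided of the 5 lists, with 4 lower and 6 higher of 28 and a median of 0.05. In either direction, 35.7% of the 28 were past the threshold, a share near the 33.4% of all genes tested. Atf3, a stress-induced factor also known as an early-response gene, measured 71.5 FPKM in fl/fl, against 30.74 in AD1KO, with a log2 ratio of -1.22 (interval -1.33 to -1.11). Ppp1r15a (GADD34), which reverses the translational block by PERK, was at 9.37 and 6.09 FPKM (-0.62), and the death gene Bcl2l11 at -0.61. Slc7a11 was also below the threshold at -0.58, but at 0.11 and 0.07 FPKM its interval ran from -1.92 to 0.47. Above the threshold stood the serine synthesis enzymes Phgdh (96.38 and 173.95 FPKM, 0.85) and Psat1 (67.01 and 97.58 FPKM, 0.54), the glutathione-degrading enzyme Chac1 (4.97 and 7.78 FPKM, 0.65), Stc2 (0.70), Vldlr (0.69) and Ddit4 (0.60). Eif4ebp1, a repressor of translation and the most abundant of the list, was at 285.95 and 393.82 FPKM (0.46), and passed the threshold with scaling by trimmed mean of M-values or upper quartile and without the 20 most abundant genes. Sesn2, at 0.49, passed it under the 3 other scalings and without those genes.

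Heat shock genes of the cytosol and mitochondria were set beside the ER genes. Of 15, 1 was lower and 1 higher, with a median of -0.05 that was 0.04 with upper-quartile scaling. Hspa8, the constitutive cytosolic relative of Hspa5, was at 647.29 and 409.38 FPKM (-0.66), and the small heat shock gene Hspb1 at 132.79 and 220.64 FPKM (0.73). By the GO annotation of the deposited table, 41 genes belonged to the cellular response to unfolded protein in the ER, 3 of them among the 10. Without these 3, 6 of 38 were lower and 1, Stc2, higher, with a median of -0.17 beside -0.04 for all genes tested. Many of the 38 were also in the lists above, Ppp1r15a and Stc2 among them, so the sets are not separate. In either direction, 18.4% of the 38 were past the threshold, against 33.4% of all genes tested. No other scaling was computed for this list.

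**Figure D5:**
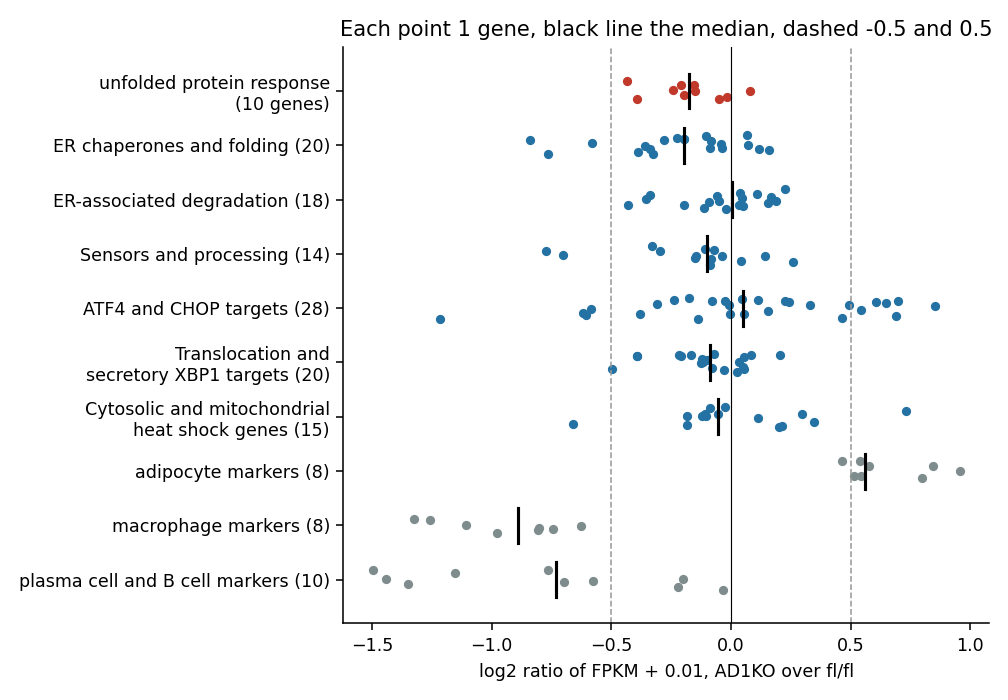
Log2 ratio of FPKM + 0.01, AD1KO over fl/fl, with 1 point per gene and a black line at the median, for the 10 unfolded protein response genes (red), other lists of the pathway and heat shock genes (blue) and marker genes (grey); dashed lines are at -0.5 and 0.5. The medians of ER lists lie between -0.20 and 0.05, while those of adipocyte and macrophage markers lie at 0.56 and -0.89.

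Genes with a complete ERSE differed among themselves in direction and size. By gene ID, 24 genes with a complete ERSE in a RefSeq promoter were in the table and 22 were tested. Of these, 1 was lower, 5 were higher and 59.1% had a ratio below 0, with a median of -0.14. Over all genes tested, 19.1% were lower, 14.3% higher and 53.8% below 0, with a median of -0.04. The 5 higher ERSE genes were Calr4 (0.82 and 1.28 FPKM, 0.64), Acnat2 (0.07 and 0.3 FPKM, 1.95) and X-linked Xlr3a, Xlr3b and Xlr3c. Xlr3a was at 1 and 1.79 FPKM (0.83), Xlr3b at 4.31 and 12.03 (1.48) and Xlr3c at 0.12 and 0.34 (1.43). The Xlr3 genes are close copies whose reads may be shared. In the lists above, the following genes carried it besides Hspa5 and Hsp90b1, shown on the strand on which CCAAT comes first, with these parts in capitals and mm9 positions. The elements are printed to show the 9 bases between the parts, since the search fixed the ends. Ero1b is listed as Ero1lb in the table.
Creld2, chr15:88649950-88649968, minus strand: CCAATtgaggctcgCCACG
Derl3, chr10:75355987-75356005, minus strand: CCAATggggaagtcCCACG
Ero1b, chr13:12657949-12657967, minus strand: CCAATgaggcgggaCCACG
Canx, chr11:50139302-50139320, minus strand: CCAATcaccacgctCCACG
Calr, chr8:87370974-87370992, plus strand: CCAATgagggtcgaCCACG
Dnajc3, chr14:119337049-119337067, plus strand: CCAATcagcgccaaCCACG
Pdia6, chr12:17273297-17273315, plus strand: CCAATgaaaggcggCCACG
Syvn1, chr19:6046532-6046550, plus strand: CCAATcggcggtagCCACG
In this order the log2 ratios were -0.84, -0.43, -0.33, -0.28, -0.23, -0.09, -0.04 and 0.04. Creld2 was the only one of these past the threshold, and Syvn1, the ubiquitin ligase HRD1, the only one above 0.

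Cell type markers moved with the genotype over the same libraries. The deleted gene, Dnmt1, measured 6.99 FPKM in fl/fl, against 3.33 in AD1KO, over the whole transcript. The labelled tissue was present, with adipocyte markers such as Adipoq at 1910.97 and 3317.8 FPKM. All 8 adipocyte markers were above 0 and 7 past the threshold (summed levels 17144.6 and 26110 FPKM, median 0.56). All 8 macrophage markers were lower (3449.73 and 1720.31 FPKM, median -0.89), as were 7 of 10 plasma cell and B cell markers, or 6 with upper-quartile scaling (216.1 and 103.84 FPKM, median -0.73) and all 6 of T and NK cells (63.23 and 17.2 FPKM, median -1.75). Stromal and endothelial lists had 0 genes past the threshold, with medians of 0.18 and 0.22, but Col1a1 (0.49) and Kdr (0.49) passed it under the 3 other scalings and without the 20 most abundant genes. Mesothelial markers were higher, 4 of 4 (70.52 and 133.19 FPKM), and oviduct and uterus markers lower, 4 of 4 (8.12 and 0.83 FPKM), with Pax8 listed at 0 in AD1KO. Plasma cell genes included Mzb1, an ER partner of the Hsp90b1 product, at 24.24 and 8.58 FPKM, and Jchain at 102.34 and 37.63 FPKM. The part of these cell types in the values of the unfolded protein response genes was not tested. The estimated depth was 17620000 reads in fl/fl and 17400000 in AD1KO, and the 20 most abundant genes took 15.6% and 17.1% of FPKM.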

How the data were processed

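Gene expression of pooled gWAT RNA (4 female mice per genotype, 1 library each) was sequenced by the authors' service provider, and clean reads were aligned to mouse mm9. The aligner and the quantification program are not given in the sources used here. The authors deposited expression as FPKM per gene, with 0 written as 0.01, which was set back to 0. Their comparison columns (fold change, P-value and FDR) were not used. The log2 ratio was taken after adding 0.01 FPKM, for genes with at least 0.1 FPKM in 1 library (15839 of 17335, 882 rows having no symbol), and a ratio of 0.5 or more in size was called lower or higher. Reads were estimated from the length column and from the whole-read steps of low FPKM values, with 115 bases taken off each length. Of 435 and 440 low values, 80.2% and 79.5% lay within 0.15 reads of a whole number, and the estimates sum to 17773269 and 17520595 reads. Libraries of 17335 genes with known answers were drawn with counting error alone. In these, 95.8% of intervals of unchanged genes that reached the minimum held 0. Variation among mice was not part of the draw.

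The members and the gene lists were chosen with earlier results of these data known. Named are the 10 members and, in each list, the genes with the highest and the lowest ratio at 1 FPKM or more and the most abundant gene. Other list genes were named after their values were seen, as were the genes with an ERSE. Promoters are from RefSeq (GRCm38.p6), placed on mm9 by exact match, and gene positions from GENCODE. Values come from Python 3.11.15, NumPy 2.4.6 and SciPy 1.17.1. Alternatives were 3 other scalings, leaving out the 20 most abundant genes, other pseudocounts and minimums, estimated reads, and stricter cuts. The minimum of 20 FPKM and the list counts under each scaling were added after seeing the data.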

Additional observations from a re-analysis of the deposited data

How the results depend on the processing

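Under the 12 alternatives, 0 of the 10 unfolded protein response genes passed the threshold in either direction. A threshold of 1, the whole-interval cut, the other minimums and the larger pseudocounts could not bring a gene past it, so their outcome was fixed. The median of the 10 stayed between -0.20 and -0.09. Single genes gave 97 values, those under other minimums repeating the main ones, and these reached at most 0.435 in size. Of these, 91 lay inside the gene's own counting interval, and the 6 others were of Hsp90b1 (-0.39 by trimmed mean of M-values, -0.35 by upper quartile, -0.39 without the 20 most abundant genes), Hspa5 (-0.11 and -0.15 by upper quartile and without those genes) and Xbp1 (-0.15 by upper quartile). Herpud1 was above 0 under the 3 other scalings and without the 20 most abundant genes (0.02 to 0.07), and Ern1 under the upper quartile (0.04). These settings moved the median of all genes by 0.04 to 0.09. Over all genes, 3029 were lower and 2265 higher. A pseudocount of 1 FPKM gave 1661 and 965, a threshold of 1 gave 1417 and 910, and the whole interval past 0.5 gave 1312 and 664. A minimum of 1 FPKM left 1281 higher, and one of 20 FPKM, chosen after seeing the data, 582 and 370, since fewer genes were tested. At these minimums Ern1, and at 20 FPKM also Atf6, were not compared. No paired analysis was possible because each genotype has 1 pooled library. With 1 library per group, depth limits counting error only: about 19 and 18 reads of Ern1 leave an interval from -1.07 to 0.95, and a difference between animals cannot be seen for any gene.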
